A study of Mus musculus with 12 samples.

Results

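The integrin subunits measured here are 9 genes, chosen by name with earlier results of these data known. Among them are the alpha subunits Itga2, Itga3, Itga5, Itga6 and Itgav and the beta subunits Itgb1, Itgb4, Itgb5 and Itgb6. They are 9 of 12393 genes on the array and hold 24 of its 22690 probe sets. Each gene is represented by its probe set with the highest mean log2 intensity over the 12 arrays, and the other 15 probe sets served as a check. No measured difference entered the choice of probe set. The RNA was that of BMEL (bipotential mouse embryonic liver) cells, lines made from dpc14 liver of CBA/J x C57Bl/6J mice. Such cells can turn towards hepatocytes or towards bile duct cells. The lines 9A1 and 14B3 were isolated independently, and each was grown in basal culture, as aggregates for 5 days, or in Matrigel, a gel of basement membrane proteins, with 2 arrays for each of these 6 groups. The Matrigel cultures were kept for 10 days, except that of Matrigel_14B3 replicate 1, which the labels give as 5 days, so Matrigel and its time in culture cannot be told apart. No group carries a transgene or a drug treatment according to the labels, and with 2 lines the findings describe these lines only.

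Integrins are receptors made of one alpha and one beta subunit, and the pair decides which matrix protein is held. Itgb1 pairs with many alpha subunits, giving a collagen receptor with Itga2, laminin receptors with Itga3 and Itga6, and a fibronectin receptor with Itga5. Itgb4 pairs with Itga6 in the hemidesmosome, which ties laminin to keratin filaments, while Itgav pairs with Itgb5 or Itgb6 to hold proteins with an RGD motif such as vitronectin, and with Itgb6 to free active TGF-beta. Inside the cell, talin and kindlin bind the beta tails and switch the receptors on, and adaptors link them to actin. In liver, bile duct cells rest on a laminin-rich basement membrane, whereas hepatocytes face a matrix with little laminin.

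The arrays had median intensities of 268 to 281, and the log2 difference between 3' and 5' control probe sets ran from 0.17 to 0.39 for actin and from -0.10 to 0.11 for Gapdh. Of 11 liver progenitor, hepatocyte and bile duct genes, 6 rose from basal culture to Matrigel and 0 fell, while 5 rose and 3 fell in aggregates. These are 54.5% and 72.7% of the list, where 28.4% and 46.3% of all genes passed. Markers of other cell types differed between arrays. The summed intensity of 12 hepatic stellate and mesenchymal markers was 4523 and 3485 on the Matrigel_9A1 arrays and 1867 to 2439 on the other 10. In Matrigel against basal culture 3 of the 12 rose (25%, against 28.4% of all genes) and 0 fell. The 3 were Acta2, Col3a1 and Col1a1, with log2 differences of 1.04, 1.03 and 0.69. Their SDs over the 4 Matrigel arrays were 1.21, 1.39 and 0.87, against 0.19, 0.04 and 0.04 in basal culture. These mean rises thus need not hold in each line. The others of the list, among them Des, Pdgfra and Lrat, had differences from -0.14 to 0.18 and did not pass. The sum of 13 haematopoietic markers was 5506 and 5473 on the aggregate_9A1 arrays and 2204 to 3550 elsewhere. Of these 3 rose in aggregates (23.1%, against 46.3% of all genes) and 0 fell. With the replicate block 8 rose (61.5%, against 52.6% of all genes). Csf1r had the largest rise of the 13, with a log2 difference of 1.48, and over the cultures it was lower in 14B3 than in 9A1 (-1.13). Its mean in aggregates, 10.84, was the highest of the 13, ahead of Cd3e at 9.13, so Csf1r weighed most in the sum. The summed intensity of 12 endothelial markers was 1370 to 2130 on all 12, with 1 rising and 1 falling in either culture. That is 16.7%, against 46.3% of all genes in aggregates and 28.4% in Matrigel. Fewer cells of a type and less RNA per cell cannot be told apart in these bulk samples. A guide to the level of background came from 27 genes of other tissues that passed no test between cultures or lines, with log2 values of 4.30 to 10.47 and a median of 7.50. By mean level, 17 of the 27 lay at or above Itgb6, 10 above Itga2, 6 above Itga5, 1 above Itgb4 and 0 above the other 5 members, so the folds of Itgb6, Itga2 and Itga5 may be too small.

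The first comparison, aggregates against basal culture, covers cells that grew together for 5 days and cells in the basal state. RNA for Itga6, Itgb6, Itga2 and Itga5 fell and RNA for Itgb5 rose, so 5 of the 9 subunits passed the limma test, with adjusted p below 0.05, where 46.3% of all genes passed (22.9% higher and 23.4% lower). The members' share, 55.6%, is near that of all genes. The laminin receptor subunit Itga6 was 1.64-fold lower and Itgb6, the partner of Itgav in TGF-beta activation, 1.84-fold lower. Itgb1, the common beta subunit, had a log2 difference of -0.41, with an adjusted p of 0.054, and 0.0054 in the fit that blocks on the replicate number within each line, which passed 6 subunits and 52.6% of all genes. The median of the 9 log2 differences was -0.41, against 0.10 over all genes.

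Itga6 is the alpha subunit of the laminin receptors with Itgb1 and of the hemidesmosome with Itgb4 (GRCm38.p6, chr2:71786886-71858427, plus strand). Its log2 intensities in basal culture were 11.81 and 11.96 in line 9A1 and 12.07 and 12.22 in line 14B3. In aggregates they were 11.41 and 11.09 in 9A1 and 11.49 and 11.22 in 14B3. All 4 aggregate arrays lay below all 4 basal arrays, in either line. The means were 12.02 ± 0.17 and 11.30 ± 0.18 (SD, n = 4 each), a log2 difference of -0.71 (SE 0.12, adjusted p 0.00026). The difference was -0.64 within 9A1 and -0.79 within 14B3, and it passed in both lines. Its other probe set fell by 1.00 on the log2 scale (adjusted p over all probe sets 4.93e-05).

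Itgb6 (chr2:60598292-60722603, minus strand) is the beta subunit that epithelial cells pair with Itgav. Its log2 intensities were 7.50 and 7.61 in basal 9A1, 7.55 and 7.29 in basal 14B3, 6.43 and 6.89 in 9A1 aggregates, and 6.71 and 6.41 in 14B3 aggregates. The aggregate arrays again all lay below the basal arrays, and the means were 7.49 ± 0.14 and 6.61 ± 0.23 (SD, n = 4 each). The log2 difference was -0.88 (SE 0.16, adjusted p 0.00072), being -0.90 in 9A1 and -0.86 in 14B3, and the gene's other probe set gave -0.93 (adjusted p 0.00135). Both the Itga6 and the Itgb6 falls passed whichever single array was left out.

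Itga2, the alpha subunit of a collagen receptor (chr13:114833081-114932100, minus strand), had log2 intensities of 7.83, 8.18, 7.91 and 8.32 in basal culture, in the order 9A1 replicates 1 and 2 and 14B3 replicates 1 and 2. In aggregates these were 7.69, 7.75, 7.62 and 7.51. The lowest basal array was above the highest aggregate array by a small margin. The log2 difference was -0.42 (SE 0.12, adjusted p 0.010), and Itga2 has a single probe set. It was -0.28 within 9A1 (adjusted p 0.212) and -0.55 within 14B3 (0.021). Its call was lost without basal_9A1 replicate 2 (adjusted p 0.055) or basal_14B3 replicate 2 (0.054), the 2 arrays with the highest values. Itga2, Itga6 and Itgb6 were the 3 members whose arrays did not overlap between these cultures, and 46.4% of all genes did not overlap.

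Itgb5 (chr16:33829665-33949338, plus strand), which pairs with Itgav as a vitronectin receptor, moved the other way. Its log2 intensities were 10.37, 10.57, 10.58 and 10.90 in basal culture and 11.04, 10.81, 10.98 and 11.09 in aggregates, in the same order of arrays. The groups overlapped, since basal_14B3 replicate 2 lay above 1 aggregate array. The means were 10.61 ± 0.22 and 10.98 ± 0.12 (SD, n = 4 each), with a log2 difference of 0.37 (SE 0.10, adjusted p 0.011). Within 9A1 it was 0.45 (adjusted p 0.031) and within 14B3 0.29 (0.169). The 9A1 aggregates had the high haematopoietic marker sum, in which Csf1r weighed most, and the part of those markers was not tested. All 3 other probe sets of Itgb5 were higher too, by 0.39, 0.28 and 0.24, and the first passed (adjusted p 0.017). The call was lost without basal_9A1 replicate 1 (adjusted p 0.056), basal_14B3 replicate 1 (0.062) or aggregate_9A1 replicate 1 (0.052).

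The sequence just before the RefSeq start is shown for Itga2 and Itgb6, which fell without overlap, and for Itgb5, which rose with overlap. RefSeq promoters (GRCm38.p6) matched 7 of the 9 members, Itga6 and Itgb4 being the others. Each run is the 250 bases before the gene's outermost start, 5′ to 3′ on the gene's strand, with capitals marking GGGCGG, the core of an Sp1 site, on either strand. The runs lie at chr13:114932101-114932350 (minus strand, Itga2), chr2:60722604-60722853 (minus strand, Itgb6) and chr16:33829415-33829664 (plus strand, Itgb5).
Itga2: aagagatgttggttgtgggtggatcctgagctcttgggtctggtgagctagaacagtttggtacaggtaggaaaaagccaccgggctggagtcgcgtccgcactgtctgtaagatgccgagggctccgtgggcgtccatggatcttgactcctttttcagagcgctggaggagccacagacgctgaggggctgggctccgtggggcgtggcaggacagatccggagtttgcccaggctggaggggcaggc
Itgb6: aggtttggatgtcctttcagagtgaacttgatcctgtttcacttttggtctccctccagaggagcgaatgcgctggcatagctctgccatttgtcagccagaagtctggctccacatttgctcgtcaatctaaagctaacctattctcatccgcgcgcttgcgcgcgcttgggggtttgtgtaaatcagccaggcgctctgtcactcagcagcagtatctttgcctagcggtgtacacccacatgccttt
Itgb5: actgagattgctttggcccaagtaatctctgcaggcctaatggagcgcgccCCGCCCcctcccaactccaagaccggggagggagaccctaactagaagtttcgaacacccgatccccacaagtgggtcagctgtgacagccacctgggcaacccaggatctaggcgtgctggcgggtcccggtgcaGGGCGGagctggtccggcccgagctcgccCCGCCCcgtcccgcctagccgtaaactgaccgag
The Itgb5 run held 3 matches to GGGCGG, 18 CG pairs and 65.2% G or C. Itgb6 has a further RefSeq start within the gene, whose 250 bases (chr2:60673694-60673943, 38.0% G or C, 3 CG pairs) also held 0 matches and are not shown. The runs of Itga2 and Itgb6 held 0 matches, 12 and 11 CG pairs, and 60.8% and 52.0% G or C. The run of Itga5, which was also called lower in aggregates, is not shown and held 2 matches, 11 CG pairs and 55.6% G or C. That of Itgb1, which did not pass, held 1 match, and a link of the matches to the direction of change was not tested. Over 32851 promoters of the same length, 32.7% held GGGCGG, and the medians were 6 CG pairs and 52.4% G or C. TGANTCA, the AP-1 motif, and GGAATG, the TEAD motif, had 0 matches in the 3 runs shown and were held by 6.75% and 12.6% of all promoters. The run of Itgb1, which is not shown, held 1 match to GGAATG. The motifs were searched on both strands and did not overlap each other here, and a match describes letters, not binding.

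**Figure D1:**
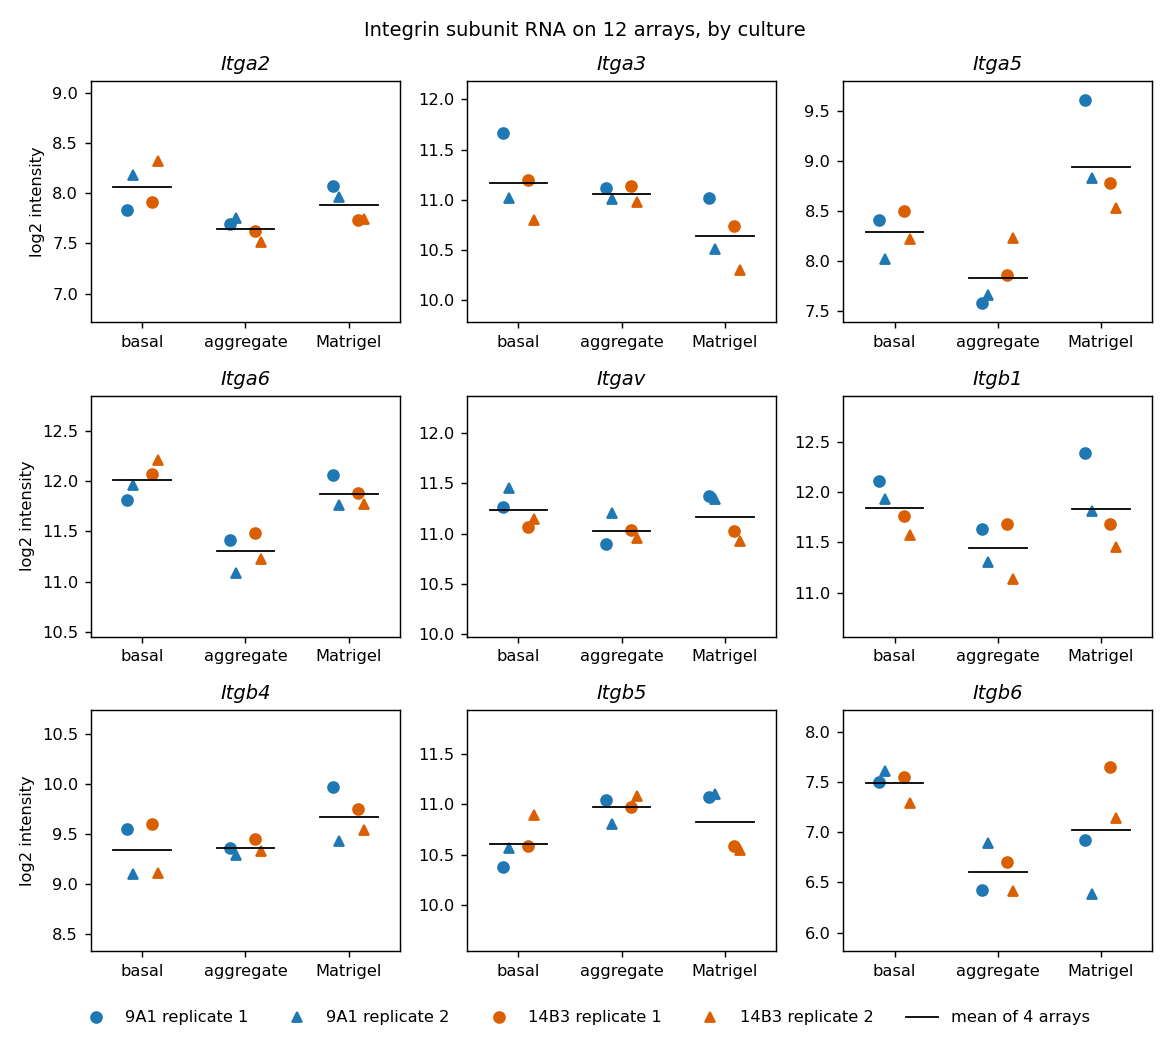
Log2 intensity (vertical axes, each spanning the same number of units) of the 9 integrin subunits on the 12 arrays in basal, aggregate and Matrigel culture. Circles and triangles are replicates 1 and 2, blue is line 9A1 and orange 14B3, and bars are means of 4 arrays; Itga6 and Itgb6 lie lower in all 4 aggregate arrays than in all 4 basal arrays, and Itga5 is highest in the 4 Matrigel arrays.

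The remaining subunits showed smaller or less stable differences in aggregates. Itga5, the fibronectin receptor's alpha subunit (chr15:103344286-103366791, minus strand), had log2 intensities of 8.41, 8.03, 8.50 and 8.22 in basal culture and 7.58, 7.67, 7.86 and 8.23 in aggregates. The aggregate_14B3 replicate 2 array lay among the basal arrays. The log2 difference of -0.45 (SE 0.17, adjusted p 0.046) was the nearest of the 5 calls to the threshold. Within the lines it was -0.60 in 9A1 (adjusted p 0.075, and 0.041 with the block) and -0.31 in 14B3 (0.383). It was lost without any 1 of 8 arrays: basal_9A1 replicate 1 (adjusted p 0.169), basal_14B3 replicates 1 (0.151) and 2 (0.0504), aggregate_9A1 replicates 1 (0.105) and 2 (0.078), aggregate_14B3 replicate 1 (0.140), and either Matrigel_14B3 array (0.051 each). It was also lost with arrays centred on their medians (adjusted p 0.055), and the gene's other probe set had a difference of -0.09.

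Itgb1 (chr8:128685654-128733579, plus strand) had log2 intensities of 12.12, 11.93, 11.76 and 11.58 in basal culture and 11.63, 11.31, 11.69 and 11.14 in aggregates. The cultures overlapped in 14B3 and not in 9A1, with the basal 9A1 arrays highest and aggregate_14B3 replicate 2 lowest. Its second-brightest probe set fell by 0.59 on the log2 scale (adjusted p 0.00069). A dim probe set, with a mean log2 of 6.07, was higher by 0.26 (adjusted p 0.048), so the gene's 6 probe sets did not share a direction. Itgb1 passed when aggregate_9A1 replicate 1 (adjusted p 0.045), aggregate_14B3 replicate 1 (0.016) or either Matrigel_9A1 array (0.034 each) was left out.

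Itga3, a laminin receptor subunit (chr11:95044475-95076844, minus strand), Itgav (chr2:83722303-83806917, plus strand) and Itgb4, the hemidesmosome subunit (chr11:115974725-116008412, plus strand), did not pass in aggregates. Their log2 differences were -0.11 (95% interval -0.49 to 0.27), -0.21 (-0.43 to 0.01) and 0.02 (-0.32 to 0.36). The interval for Itgb4 leaves room for a change of up to about the size seen for Itgb5. So Itga6 fell, while its hemidesmosome partner Itgb4 had means of 9.34 ± 0.27 and 9.36 ± 0.07 (SD, n = 4 each).

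Matrigel was compared with basal culture to ask how the receptors differ when the cells lie in a gel of laminin and collagen IV. Itga5 rose 1.57-fold and Itga3 fell 1.44-fold, so 2 of the 9 subunits passed, where 28.4% of all genes did (14.1% higher and 14.3% lower), a share of 22.2% of the members. With the replicate block 4 passed, Itgb4 and Itgb6 being added, where 33.7% of all genes did. The median of the 9 log2 differences was -0.06 and that of all genes -0.04.

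Itga5 had log2 intensities of 9.61 and 8.83 in Matrigel_9A1 and 8.78 and 8.53 in Matrigel_14B3. All 4 lay above all 4 basal arrays, Matrigel_9A1 replicate 1 by the widest margin. It was the only 1 of the 9 without overlap between these cultures, where 26.2% of all genes had none. The means were 8.94 ± 0.47 in Matrigel and 8.29 ± 0.21 in basal culture (SD, n = 4 each), a log2 difference of 0.65 (SE 0.17, adjusted p 0.013). Its other probe set was higher by 0.35 (adjusted p 0.039). Within the lines the difference was 1.00 in 9A1 (adjusted p 0.014) and 0.29 in 14B3 (0.535). The Matrigel_9A1 arrays also held the high stellate and mesenchymal marker sums. Of those markers only Acta2, Col3a1 and Col1a1 passed in Matrigel, and the part of these in the Itga5 result was not tested. Without Matrigel_9A1 replicate 1 the difference was 0.45 (adjusted p 0.044). The call was lost without basal_9A1 replicate 2 (0.055) or basal_14B3 replicate 2 (0.053), the lower basal array of each line.

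Itga3 had log2 intensities of 11.66, 11.02, 11.20 and 10.80 in basal culture and 11.02, 10.51, 10.74 and 10.30 in Matrigel. The ranges touched only through replicate 2 of basal culture and replicate 1 of Matrigel, and within each line and each replicate number the Matrigel array was the lower one. The log2 difference was -0.53 (SE 0.17, adjusted p 0.038), and 0.0027 with the replicate block. It was -0.58 in 9A1 and -0.48 in 14B3, with adjusted p-values of 0.143 and 0.241, and of 0.017 and 0.041 with the block. Both other probe sets of Itga3 fell as well, by 0.72 (adjusted p 0.018) and by 0.65 (0.039). The call was lost without basal_9A1 replicate 1 (0.172), basal_14B3 replicate 1 (0.154), Matrigel_9A1 replicate 2 (0.144) or Matrigel_14B3 replicate 2 (0.140).

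Itgb6 passed against basal culture within 9A1 and not within 14B3, and the difference between the lines' responses did not pass (adjusted p 0.498). Its log2 intensities were 6.93 and 6.38 in Matrigel_9A1 and 7.65 and 7.14 in Matrigel_14B3. The 9A1 arrays lay below every basal array, and the 14B3 arrays lay around the basal ones. Over both lines the difference was -0.47, with an adjusted p of 0.053 and of 0.026 with the replicate block. It was -0.90 in 9A1 (adjusted p 0.019) and -0.03 in 14B3 (0.966). It passed without Matrigel_9A1 replicate 1 (0.022), Matrigel_14B3 replicate 1 (0.024) or either aggregate_9A1 array (0.045 each).

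Itgb4 had log2 intensities of 9.97, 9.43, 9.75 and 9.54 in Matrigel and 9.55, 9.10, 9.60 and 9.11 in basal culture. The Matrigel array was the higher one in each line and replicate number, while the groups overlapped. Its difference of 0.33 had an adjusted p of 0.139, and of 0.028 with the replicate block. It also passed without Matrigel_9A1 replicate 2 (0.048). Itga2, Itga6, Itgav, Itgb1 and Itgb5 had differences of -0.18, -0.14, -0.06, -0.01 and 0.22, which did not pass over both lines. Within 9A1 Itgb5 passed as higher in Matrigel (0.62, adjusted p 0.013), and within 14B3 it did not (-0.17, adjusted p 0.555). The difference between these responses did not pass (adjusted p 0.167). For Itgb1 the 95% interval was -0.36 to 0.33 and for Itga6 -0.40 to 0.11.

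**Figure D2:**
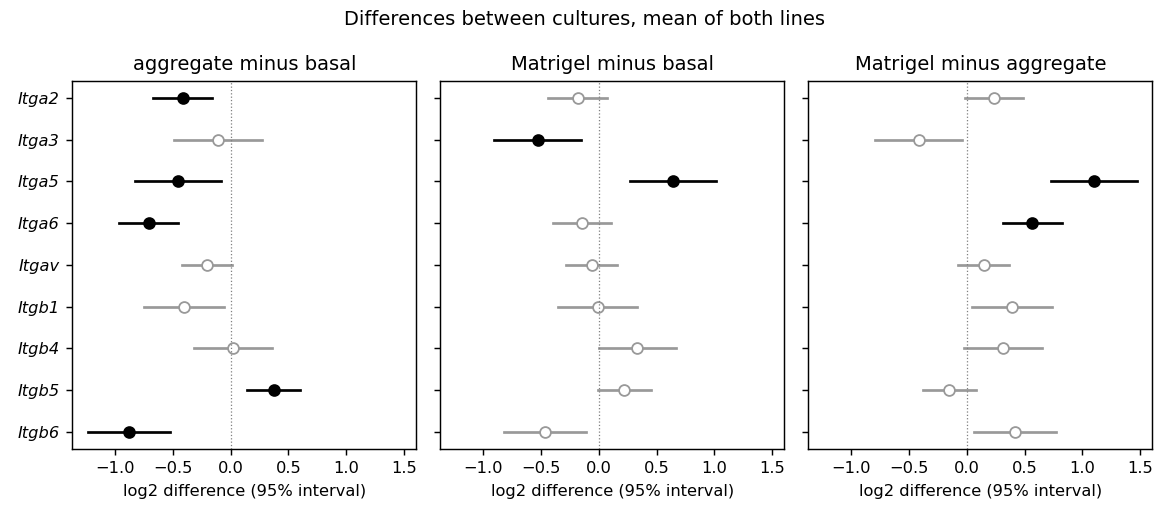
Log2 differences between cultures (horizontal axes) for the 9 subunits, averaged over both lines, with 95% intervals from the limma fit; filled points passed at an adjusted p below 0.05. Aggregate against basal culture has 5 filled points, of which Itgb5 alone lies above 0, and each of the other comparisons has 2.

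Matrigel was also compared directly with aggregates. Itga5 and Itga6 were higher in Matrigel, and these 2 of 9 passed, where 26.7% of all genes did (13.9% higher and 12.7% lower), again 22.2% of the members. With the replicate block 6 passed, where 37.8% of all genes did. These comparisons share arrays: the aggregate arrays enter both this comparison and the one with basal culture, so the falls above and the rises here are not separate observations.

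For Itga5 the means were 8.94 ± 0.47 in Matrigel and 7.84 ± 0.29 in aggregates (SD, n = 4 each), a log2 difference of 1.10 (SE 0.17, adjusted p 0.00058), or 2.15-fold. It was the only 1 of the 9 to reach 1 log2 unit in any of the 3 culture comparisons, and 4.64% of all genes did in this one. The difference was 1.59 in 9A1 (adjusted p 0.0011) and 0.61 in 14B3 (0.133). For Itga6, with 12.06 and 11.76 in Matrigel_9A1 and 11.89 and 11.77 in Matrigel_14B3, all 4 Matrigel arrays lay above all 4 aggregate arrays. The log2 difference was 0.57 (SE 0.12, adjusted p 0.0034), being 0.66 in 9A1 (0.017) and 0.48 in 14B3 (0.084). Itga5 and Itga6 were the 2 members without overlap, where 25.3% of all genes had none, and both passed whichever single array was left out.

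The 4 subunits added by the block had log2 differences of -0.42 for Itga3 (adjusted p 0.094, and 0.011 with the block), 0.39 for Itgb1 (0.086 and 0.011), 0.31 for Itgb4 (0.147 and 0.036) and 0.42 for Itgb6 (0.080 and 0.040). The second-brightest Itgb1 probe set was higher by 0.67 (adjusted p 0.00087). Within the lines Itgb6 differed by -0.0017 in 9A1 and 0.83 in 14B3 (adjusted p 0.034). Without Matrigel_9A1 replicate 2, the fit called Itgb1, Itgb4 and Itgb6 as well, 5 subunits in all. Itga2, Itgav and Itgb5 had differences of 0.23, 0.15 and -0.15.

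The order of the 6 groups differed between subunits. Itga6 was highest in basal 14B3 and lowest in both kinds of aggregates, and between the 2 lines' aggregates its arrays overlapped. Itga5 was highest in Matrigel_9A1, then Matrigel_14B3, both basal groups and last the aggregates of 14B3 and of 9A1. Its group means spanned 1.59 log2 units. The basal groups of the lines overlapped for Itga5, while the 2 Matrigel groups did not. Itgb6 was highest in both basal groups and Matrigel_14B3, whose arrays overlapped, and lowest in both aggregate groups and Matrigel_9A1, which overlapped with each other. For Itga3 every neighbouring pair of groups overlapped, from basal 9A1 at 11.34 to Matrigel_14B3 at 10.52. Itga2 was lowest in both aggregate groups, and its 3 highest groups, basal 14B3, Matrigel_9A1 and basal 9A1, overlapped. Itgb1 was highest in Matrigel_9A1 and basal 9A1, which overlapped with each other and not with the next group, basal 14B3. Every neighbouring pair overlapped for Itgb5, from Matrigel_9A1 at 11.09 to basal 9A1 at 10.47. Itgav and Itgb4 had the narrowest spans of group means, 0.38 each.

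The lines were compared over all cultures, with 6 arrays each. With limma 0 of the 9 subunits passed, 2 had an unadjusted p below 0.05, and 6.01% of all genes passed. Those 2 were Itgb1, with a log2 difference of -0.31 for 14B3 minus 9A1 (adjusted p 0.238), and Itgav, with -0.23 (0.154). With the replicate block Itgb1 passed (adjusted p 0.037), where 9.03% of all genes did, and its second-brightest probe set was lower in 14B3 by a log2 difference of -0.41 (adjusted p 0.019). Within single cultures 0 of 9 passed in basal culture, aggregates or Matrigel, where 1.9%, 1.53% and 3.77% of all genes passed. At an unadjusted p below 0.05 the counts were 0, 0 and 5.

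Those 5 in Matrigel were Itgb6, higher in 14B3 by 0.74, and Itgb5, Itga5, Itgb1 and Itgav, with differences of -0.52, -0.57, -0.53 and -0.38. Their adjusted p-values ran from 0.091 to 0.348. Matrigel_14B3 replicate 1 was kept for 5 days and both Matrigel_9A1 cultures for 10 days, so these line differences also carry days in culture. Itgb5 and Itgb6, which both pair with Itgav, had measured differences of opposite sign between the lines in Matrigel, and neither passed. Itgb5 was 11.08 and 11.10 in Matrigel_9A1 and 10.58 and 10.55 in Matrigel_14B3, without overlap. In aggregates its arrays from both lines overlapped, and in basal culture the 14B3 arrays lay just above those of 9A1.

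The response to culture was then compared between the lines. For the aggregate response 0 of 9 subunits differed, also at an unadjusted p below 0.05, where 0.468% of all genes passed. For the Matrigel response 0 of 9 passed and 2 had an unadjusted p below 0.05, where 0.686% of all genes passed. Itgb5 changed from basal culture to Matrigel by 0.62 in 9A1 and -0.17 in 14B3, a difference of -0.79 (adjusted p 0.167). For Itgb6 the difference between the responses was 0.87 (adjusted p 0.498) and for Itga5 -0.71 (0.802). So for Itga5, Itgb5 and Itgb6 the lines' responses to Matrigel are not shown to differ. Days in Matrigel also differed between the lines, through Matrigel_14B3 replicate 1. Counted line by line from basal culture, aggregates passed 3 subunits in each line, where 36.9% of all genes passed in 9A1 and 33.2% in 14B3. With the block 5 passed in 9A1 (42.3% of all genes) and 3 in 14B3 (38.9%). Matrigel passed 3 in 9A1, namely Itga5, Itgb5 and Itgb6, where 17.8% of all genes passed. In 14B3 it passed 0 (16.5% of all genes), and 1 had an unadjusted p below 0.05. With the block 4 passed in 9A1 and 1 in 14B3 (22.8% and 21.8%). Between Matrigel and aggregates 2 passed in 9A1 (15.6%) and 1 in 14B3 (13%), and 3 in each with the block (22.3% and 19.4%).

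Replicate numbers mattered for 3 subunits. Itga3, Itgb1 and Itgb4 were lower in replicate 2 than in replicate 1 in all 6 groups, by log2 means of -0.38, -0.34 and -0.31, and 8.57% of all genes were lower in all 6. The replicate number held 32.2%, 27.4% and 42.9% of their sums of squares, against a median of 7.68% over all genes. For Itgb4 that share was larger than the 41.2% held by culture. In Matrigel_14B3 replicate 1 was kept for 5 days and replicate 2 for 10, so there replicate number and days cannot be told apart. Culture held 82.5% for Itga6, 70.3% for Itga5 and 60.0% for Itgb6, where the median over all genes was 48.5%. For Itgb5 the interaction of culture and line held the most, 47.3%, and for Itgav the line did, 41.0%.

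**Figure D3:**
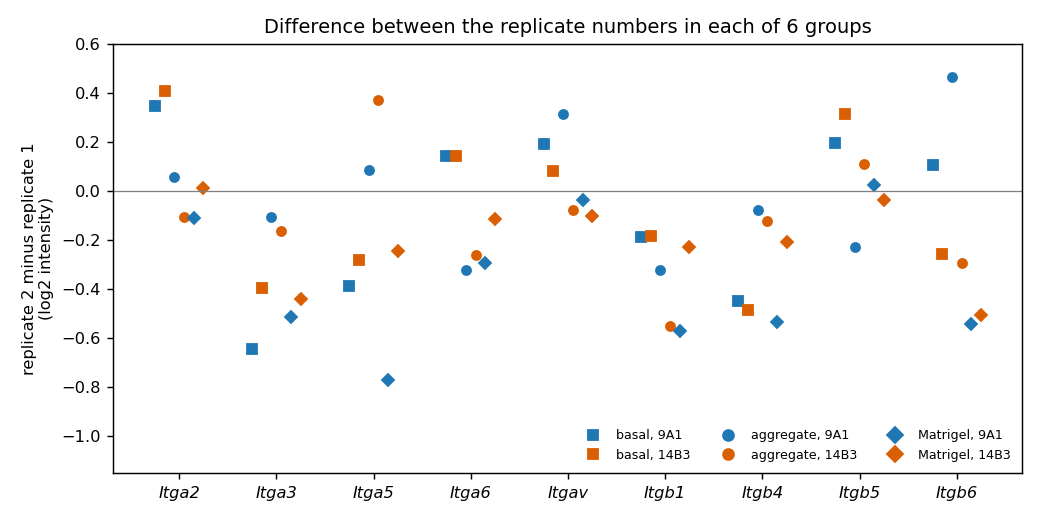
Log2 intensity of replicate 2 minus replicate 1 (vertical axis) for each subunit in the 6 groups; squares are basal, circles aggregate and diamonds Matrigel arrays, blue is 9A1 and orange 14B3. All 6 points lie below 0 for Itga3, Itgb1 and Itgb4, and points lie on both sides of 0 for the other subunits.

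The 15 other probe sets were set against those used. Their direction matched in 13 of 15 for aggregates against basal culture and in 11 of 15 in each of the other comparisons, those of Matrigel and that of the lines. Of the 5, 4, 3 and 1 that passed in these comparisons, 4, 4, 3 and 1 had the direction of the probe set used. The exception was the dim Itgb1 probe set described above. Over the comparisons of culture, Itgb5 had 1 further probe set that passed in Matrigel against basal culture, higher by 0.34 (adjusted p 0.049).

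**Figure D4:**
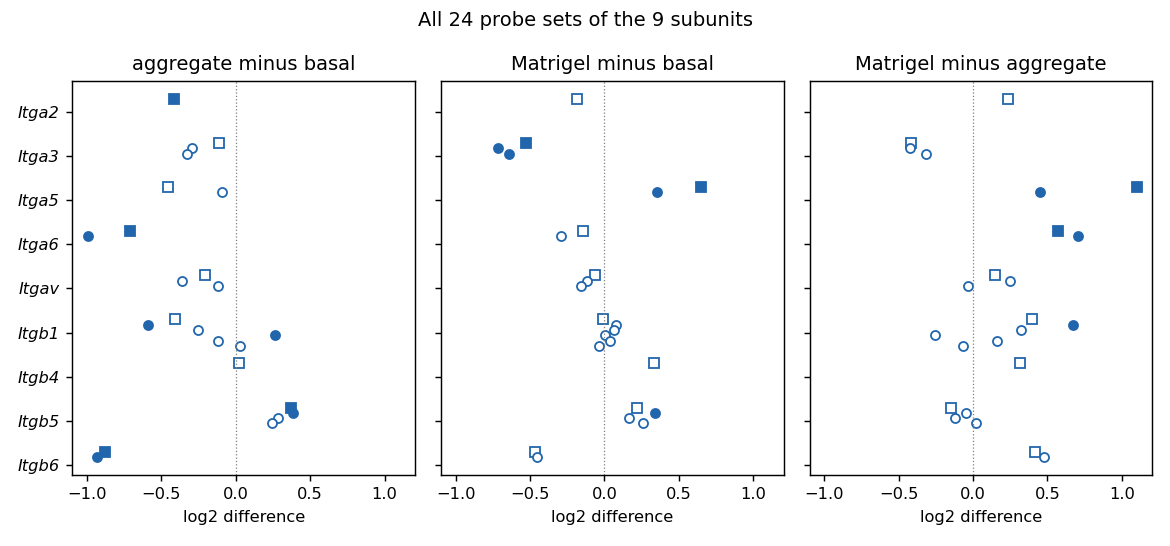
Log2 differences between cultures (horizontal axes) for all 24 probe sets of the 9 subunits; squares are the probe sets used, circles the others, and filled points passed with p-values adjusted over all probe sets. The probe sets of Itga3, Itga5, Itga6 and Itgb6 share a direction in each of the 3 comparisons, and those of Itgb1 do not in any of them. The Itga5 square is open for aggregates against basal culture because its adjusted p was 0.052 over all probe sets.

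The other subunits on the array, mostly those of blood cells, platelets and muscle, showed little measured difference, at low signal. Their culture means ran from 5.13 (Itgam in basal culture) to 8.82 (Itga2b in aggregates). All lay below the highest gene mean of the background guide, 10.12, so a change in them may be missed. Of 17 listed, 12 were measured (Itga1, Itga10, Itga11, Itgad and Itgb8 had no probe set used here), and 0 passed between any of the cultures. Of all genes 46.3% passed for aggregates against basal culture, 28.4% for Matrigel against basal culture and 26.7% for Matrigel against aggregates. At an unadjusted p below 0.05 the counts were 1 for aggregates against basal culture, 0 for Matrigel against basal culture and 2 for Matrigel against aggregates. With the replicate block 4 passed as higher in aggregates than in basal culture and 2 as lower in Matrigel than in aggregates. These are 33.3% and 16.7% of the 12, against 52.6% and 37.8% of all genes. Their log2 differences ran from -0.29 to 0.31 over the 3 comparisons. The leukocyte subunits Itgam and Itgal, which are also 2 of the 13 haematopoietic markers, had differences of 0.30 (adjusted p 0.052) and 0.26 (0.207) in aggregates, which did not pass.

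Genes of the matrix proteins that these receptors hold were read next. Of 24 measured laminin, collagen and basement membrane genes, 8 fell and 1 rose in aggregates. These 37.5% compare with 46.3% of all genes, and the list's median log2 difference was 0.08. Lamb1, a laminin beta chain, fell 8.50-fold (log2 difference -3.09, SE 0.11, adjusted p 1.39e-09) to a mean of 6.51, below the median of the background guide, so its fold may be too small. Lamb3, a chain of the laminin held by the hemidesmosome, fell 4.51-fold. Lama5 and Lamc1 fell by 1.01 and 1.09 on the log2 scale, and the rise was that of Lama3, by 0.26. In Matrigel 4 rose and 4 fell against basal culture, 33.3% against 28.4% of all genes. Col3a1 was higher by 1.03, from a basal mean of 5.22, which is also below that median. Its SD was 1.39 over the 4 Matrigel arrays and 0.04 in basal culture, so this mean rise need not hold in each line. Col4a5 was higher by 0.91, while Lamb3 fell by 0.89 and Nid1, a linker of laminin to collagen IV, by 0.63. Without Matrigel_14B3 replicate 2 the 8 calls became 5. Between Matrigel and aggregates 10 were higher in Matrigel, led by Lamb1 at 2.59 and Lamb3 at 1.28, and Col4a3 was lower, 45.8% against 26.7% of all genes, and leaving out 1 array gave 7 to 12 calls. Col1a1 and Col3a1 are also among the stellate and mesenchymal markers, whose sum was high on the Matrigel_9A1 arrays, and that overlap was not tested.

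Among 24 measured RGD proteins and other ligands, 9 fell and 4 rose in aggregates, which is 54.2% against 46.3% of all genes, with a median log2 difference of -0.01. Npnt (nephronectin) was 15.4-fold lower and Ccn2 5.36-fold lower, while Tgfbi, a secreted RGD protein, rose 11.0-fold and L1cam 1.37-fold. Npnt in aggregates, at a mean of 6.67, and Tgfbi in basal culture, at 6.54, lay below the median of the background guide, so these folds may be too small. Fn1, the fibronectin held by the Itga5 and Itgb1 pair, was lower by a log2 difference of -0.99 (SE 0.30, adjusted p 0.018), and Tgfb1, whose latent form is held by the Itgav pairs, by -1.05 (SE 0.15, adjusted p 8.11e-05). In Matrigel 3 rose and 1 fell against basal culture, 16.7% against 28.4% of all genes, with Tnc (tenascin-C) 6.57-fold and Tgfbi 2.95-fold higher and Adam9 1.27-fold lower. The limit holds for Tnc too, at a basal mean of 6.68. Its SD was 1.50 over the 4 Matrigel arrays and 0.16 in basal culture, so its mean rise need not hold in each line. Without Matrigel_14B3 replicate 2 these 4 calls became 2, and with the block 6. Against aggregates 11 were higher in Matrigel and 3 lower (58.3%, against 26.7% of all genes), Tnc by 2.69 and Npnt by 2.66 from means below that median, with Tgfbi at -1.90 and L1cam at -0.43. Leaving out 1 array gave 9 to 15 calls there, the fewest without aggregate_9A1 replicate 2.

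The 49 measured activators and adhesion complex genes, which couple integrin tails to actin, were mostly lower in aggregates: 25 fell and 6 rose, 63.3% against 46.3% of all genes, with a median log2 difference of -0.28 against 0.10 over all genes. Flna (filamin A), a crosslinker of actin that binds beta tails, fell 5.84-fold (SE 0.18 on the log2 scale, adjusted p 3.18e-07) and Csrp1 3.14-fold. Fermt2 (kindlin-2), Tln1 (talin) and Ilk fell by 1.26, 0.53 and 0.48 on the log2 scale. Ptk2b, a kinase related to focal adhesion kinase, rose 2.05-fold and the tensin gene Tns2 2.02-fold. The smallest count after leaving out 1 array was 24 of 49.

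In Matrigel 6 of these 49 rose and 5 fell against basal culture, and with the replicate block 7 rose and 11 fell. These are 22.4% and 36.7% of the list, against 28.4% and 33.7% of all genes. Ptk2b was higher by 0.93 and Pdlim1 by 0.72, and Enah was lower by a log2 difference of -0.99 and Flna by -0.78. Fermt2 and Ilk had differences of -0.07 and 0.08, which did not pass. Against aggregates 18 were higher in Matrigel and 3 lower (42.9%, against 26.7% of all genes), with Flna at 1.76, Csrp1 at 1.73, Tns2 at -0.61 and the kinase Src at -0.43.

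Of 13 measured hemidesmosome and tetraspanin partners, which sit beside integrins in the membrane or anchor them to keratin, 5 rose and 4 fell in aggregates, 69.2% against 46.3% of all genes. The tetraspanin Cd9 fell 8.27-fold (adjusted p 2.56e-07) and Tspan4 3.09-fold, whereas Cd82 rose 3.22-fold and Tspan3 1.84-fold. Cd151, the tetraspanin partner of the Itga3 and Itga6 laminin receptors, fell by 0.50 on the log2 scale (adjusted p 0.00066). Plec (plectin) and Dst, the linkers of the hemidesmosome to filaments, had differences of 0.14 and -0.11 and did not pass. In Matrigel 3 rose and 3 fell against basal culture (46.2%, against 28.4% of all genes), with Cd82 higher by 1.05, Bsg by 0.48, and Cd9 and Tspan4 lower at -0.87 and -0.72. Without basal_14B3 replicate 2 these 6 calls became 3. Against aggregates 2 were higher and 4 lower (46.2%, against 26.7% of all genes), with Cd9 at 2.18, Tspan4 at 0.91, Slc3a2 at -0.69 and Cd82 at -0.64.

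**Figure D5:**
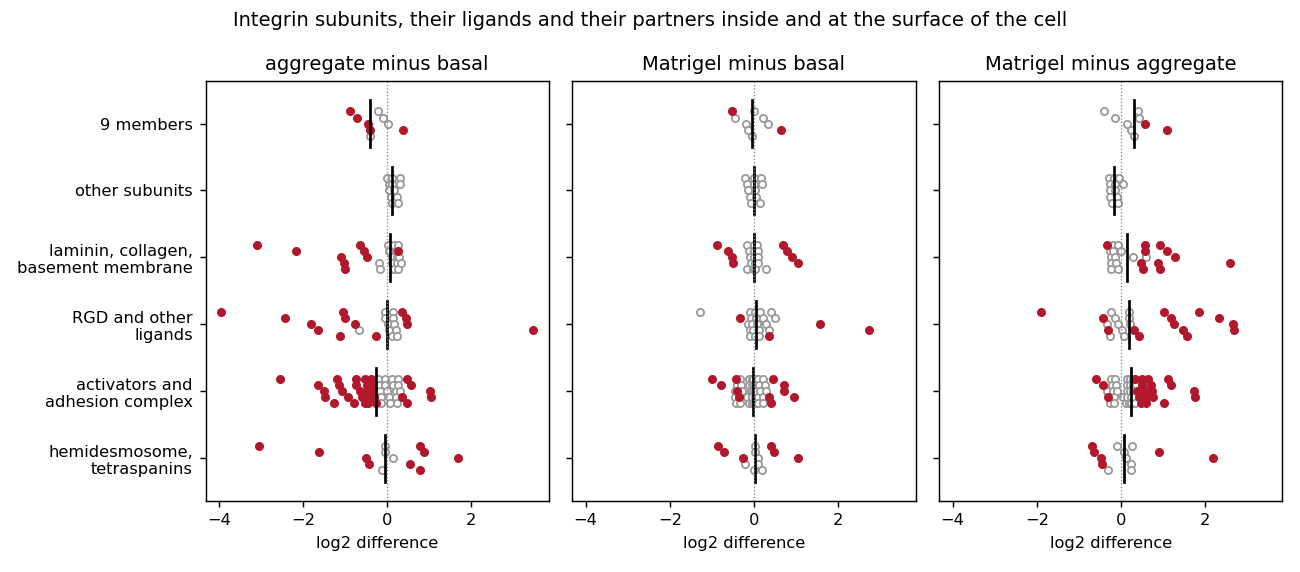
Log2 differences between cultures (horizontal axes) for the 9 members, the other subunits, both groups of ligands, the adhesion complex genes and the membrane partners; each circle is a gene, red circles passed at an adjusted p below 0.05 and black bars are list medians. The 9 members lie between -0.88 and 1.10, inside the range of the ligands, which runs from -3.95 to 3.46 in aggregates.

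The size of change of the subunits was also read against all genes. The median absolute log2 difference of the 9 was 0.41 in aggregates, 0.22 in Matrigel and 0.39 between these cultures, against 0.28, 0.16 and 0.22 over all genes. In the 3 comparisons 0, 0 and 1 of the 9 reached 1 log2 unit, where 15.6%, 6.04% and 4.64% of all genes did. Itga5 was the only member whose 6 group means spanned 1 log2 unit, and the genes with the most similar centred profile over the 12 arrays were named for it. They were Bok, Cavin3 and Socs5, with root mean square differences of 0.25, 0.27 and 0.28 log2 units. Their means in basal culture, aggregates and Matrigel were 10.03, 9.65 and 10.61 for Bok, 8.37, 7.73 and 8.85 for Cavin3, and 9.83, 9.34 and 10.07 for Socs5.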

How the data were processed

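RNA of 12 cultures was measured on Affymetrix mouse 430A arrays from 5 ug total RNA, per the labels. The authors deposited RMA signal intensity per probe set, made with R 2.3.1 and RMA, per the submitters' processing notes; the values run from 14.4 to 27318 on a linear scale, so log2 was taken here. Array number, not depth, limits the precision. Gene names come from the platform annotation, and 20351 probe sets were matched to RefSeq by gene ID with 0 names changed: 20380 had 1 symbol, 691 several, 1555 none and 64 were controls, and only the first were used. The file build is not given in the sources used here; loci and promoters are RefSeq's on GRCm38.p6.

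Means of 6 groups were fitted with limma 3.58.1 (lmFit, eBayes) in R 4.3.3, which left 6 residual degrees of freedom. Tests were two-sided, with the Benjamini-Hochberg adjustment over the 12393 genes and a threshold of 0.05, without a filter on dim genes. Contrasts between cultures average both lines. The scripts were tested on simulated data. The arrays are described as biological duplicates, with no word on how separate the cultures were; p-values then measure the spread between these samples alone, and that may be technical. Pairing by replicate number was read from the data, not the labels: replicate 2 minus replicate 1 correlated across genes between groups (r of 0.10 to 0.64, over 0.1 in each of 15 pairs). Results of a blocked fit, with replicate number nested in line, therefore stand beside those whose call it changes, or whose count it moves by more than 1.5 times.

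The members and 10 gene lists were chosen with earlier results of these data known. Named genes are all 9 members, other subunits that passed, the 2 largest called rises and falls per list and culture comparison, and the 3 nearest profiles of members spanning 1 log2 unit. Itgam, Itgal, Lama5, Lamc1, Fn1, Tgfb1, Fermt2, Tln1, Ilk, Cd151, Plec and Dst were added after their values were seen, for their roles. Csf1r, Cd3e, Acta2 and Col1a1 were also named after their values were seen, as markers of other cell types. Alternatives were the block, each array left out, averaged probe sets per gene, all probe sets tested, quantile normalization, median centring, genes above the median level, array weights, log2(value + 32) and each line alone. Figures used Python 3.11.15 and matplotlib 3.10.9.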

Additional observations from a re-analysis of the deposited data

How the results depend on the processing

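Of 54 member comparisons, the replicate block left 46 calls the same and added 8, which are given with each result. It raised the count of subunits passing from 2 to 4 for Matrigel against basal culture, from 2 to 6 for Matrigel against aggregates and from 0 to 1 for the lines, and the count for aggregates from 5 to 6; it changed no other call of the comparisons over both lines or of the differences in response. Within a line the block added Itga5 and Itgb1 for aggregates in 9A1, Itga3 for Matrigel against basal culture in each line, and, for Matrigel against aggregates, Itgb1 in 9A1 and Itga3 and Itgb5 in 14B3. Leaving out 1 array gave 3 to 6 subunits for aggregates against basal culture, 1 to 3 for Matrigel against basal culture and 2 to 5 for Matrigel against aggregates, and 0 for the lines and for both differences in response. No called difference changed sign under any alternative run.

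Among genes above the median level, which hold 6 of the members, 3, 1 and 1 passed in the 3 culture comparisons; Itga2, Itga5 and Itgb6 were not tested there. In 9A1 alone 3 passed in aggregates. In 14B3 alone the counts were 3, 0 and 1, the 0 being for Matrigel against basal culture, where limma gave 1 at an unadjusted p below 0.05. For the 3 in aggregates the share of all genes in 14B3 alone was 30.8%. A line alone gives no comparison of the lines. With array weights Itga3 no longer passed in Matrigel (adjusted p 0.053), and with averaged probe sets Itga5 no longer passed in aggregates (0.122, difference -0.27); the cause was not tested. The low signal of Itgb6, Itga2 and Itga5 limits their folds, and 4 arrays per culture limit all of them.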
